A study of Mus musculus with 6 samples.

Results

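Ribosome biogenesis and nucleolar genes were followed across 6 RNA sequencing libraries of cultured mouse neural stem cells. The set is a fixed list of 39 mouse gene symbols, chosen with earlier results of these data known. All of them matched an Ensembl identifier among the 29267 in the deposited tables. All 39 passed the filter on low counts (10 or more counts per library on average). The cells carried the strain label OG2, a mouse line with a green fluorescent protein reporter under Oct4 control, and all libraries came from passage 8. In each of 2 states there were 3 libraries: undifferentiated neural stem cells (NSC) and differentiated cells labelled D2, each without ligand (control), with naloxone, an antagonist of opioid receptors, or with DAMGO, a peptide that activates the mu opioid receptor. The labels give no ligand dose or duration and do not say whether libraries came from separate cultures, and each of the 6 groups holds 1 library. Differences between states were therefore tested over the 3 ligand conditions and differences between ligands over the 2 states, and the p-values reflect no more than how these 6 libraries vary, which may be technical.

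Ribosomes are built in the nucleolus. RNA polymerase I, recruited by UBF and the SL1 complex and licensed by the initiation factor RRN3, transcribes the long ribosomal RNA precursor. Small nucleolar ribonucleoproteins (snoRNPs) then modify it, those with box C/D RNAs by methylation and those with H/ACA RNAs by pseudouridylation, and large sets of assembly factors cut, fold and export the small and large subunits. The transcription factor MYC activates many of these genes in growing cells, and proliferating neural progenitors have prominent nucleoli. The libraries measure messenger RNA of the assembly machinery and not ribosomal RNA or ribosomes, and most genes of the ribosomal proteins themselves were not analysed here.

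Library totals lay between 8417074 and 13561237 expected counts. Summed over a list of 15 proliferation genes, the level was 5666 to 5689 CPM (counts scaled to a common library size by TMM) in NSC and 391 to 446 CPM in D2. The list of 11 neural stem and progenitor markers, all detected, summed to 9108 to 9222 CPM in NSC and 10331 to 10872 CPM in D2. Astrocyte markers (9 of 9 detected) summed to 191 to 216 CPM in NSC and 4352 to 4587 CPM in D2, oligodendrocyte markers (9 of 9) to 201 to 225 and 1619.6 to 1801 CPM, and neuronal markers (8 of 9, Slc17a6 at 0) to 1143 to 1201 and 1248 to 1391 CPM. Of 7 oligodendrocyte markers tested, 6 rose and 1 fell, beside 40.0% and 39.8% of the 13216 genes tested. The 1 that fell was Cspg4, from 131 to 90.0 CPM on average. In D2 the oligodendrocyte sum was mostly Gpr17 (765 CPM), Cnp (413 CPM) and Pdgfra (377 CPM), with Mbp at 3.12 CPM. The neuronal sum was mostly Map2 (1100.5 and 1116 CPM on average). Tubb3 rose from 11.9 to 104 CPM and Dcx from 9.40 to 69.4 CPM, while Snap25 fell from 3.79 to 1.81 CPM and Syt1 from 26.2 to 21.2 CPM. Of 7 neuronal markers tested, 3 rose and 2 fell, beside 40.0% and 39.8% of all tested genes, so these counts are near the background. Within the stem and progenitor list Nes fell from 1837 to 405 CPM and Vim from 2807 to 1423 CPM, and Fabp7 rose from 1754 to 2916 CPM and Slc1a3 from 747 to 3216 CPM. Microglial markers (4 of 6, with Cx3cr1 and C1qa at 0) summed to at most 1.98 CPM, endothelial markers (4 of 5, Cldn5 at 0) to at most 4.72 CPM, and fibroblast and pericyte markers (8 of 8) to 0.772 to 11.02 CPM in NSC and 15.2 to 29.5 CPM in D2. The endothelial sums overlapped between the states (3.64 to 4.72 CPM in NSC and 3.07 to 4.02 CPM in D2), and the sums of the other lists did not. The part of these lists in the results below was not tested. In bulk RNA, fewer cells of a type and less RNA per cell cannot be told apart.

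Nearly the whole set fell with differentiation. By edgeR's quasi-likelihood test, 37 of the 39 genes were lower in D2 than in NSC at an adjusted p under 0.05 and 0 were higher, beside 39.8% and 40.0% of the 13216 genes tested. At least 2-fold falls were seen in 26 of the 39, beside 18.0% of all tested genes. For 37 of the 39, every D2 library lay below every NSC library in CPM, which was so for 40.9% of tested genes. The median log2 fold change of the set was -1.24, against 0.00 over all tested genes, and the medians within the control, naloxone and DAMGO pairs of libraries were -1.21, -1.25 and -1.23. Across the 37 that fell the adjusted p ranged from 3.25e-12 to 0.000364 (edgeR). The 2 genes that did not pass were Polr1c and Ubtf. The kit does not mark strand, and 12 of the 39 share exon sequence with an expressed gene on the opposite strand, among them Taf1d, Gnl3 (with Pbrm1), Nop56 (with Idh3b), Dkc1 (with Mpp1), Tsr1 (with Srr) and Bysl (with Ccnd3), so that their values are less certain.

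**Figure D1:**
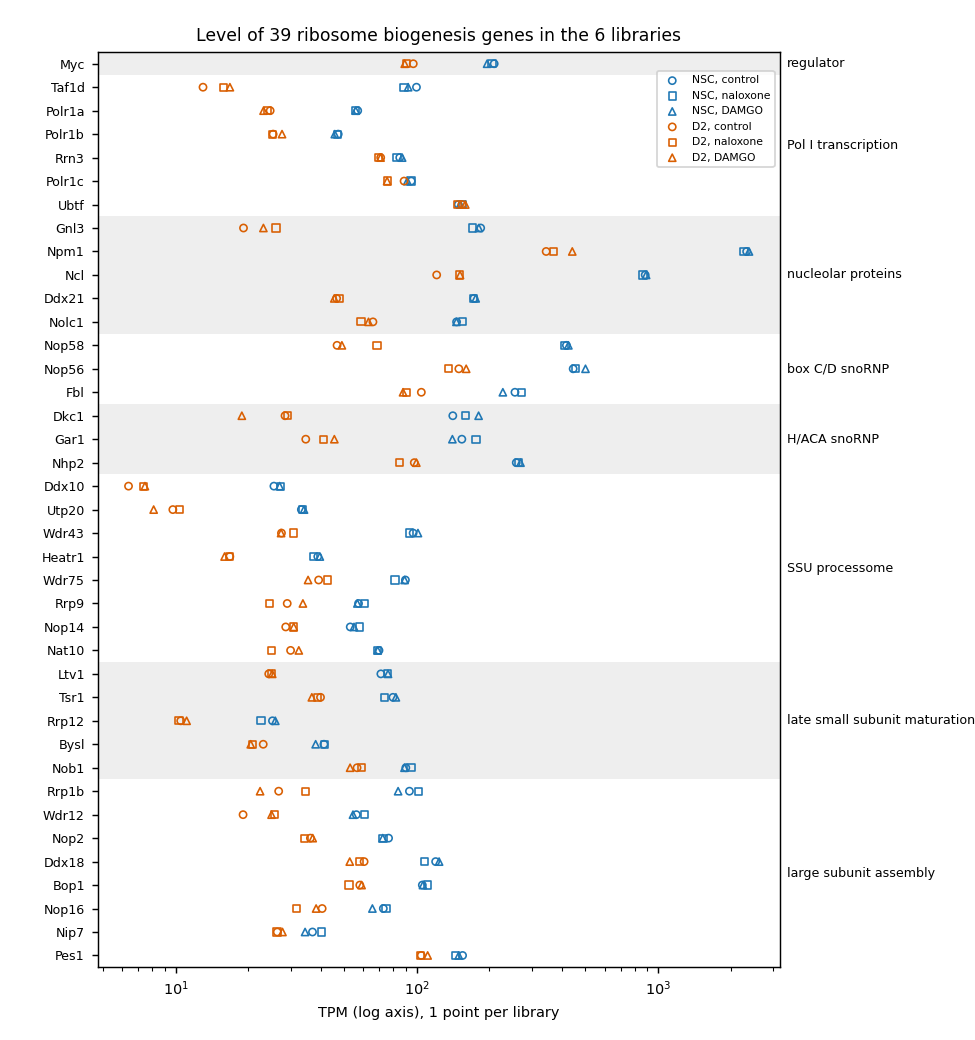
Level of each of the 39 genes in the 6 libraries, in TPM (transcript share scaled per length and library, horizontal log axis, 1 point per library), with blue points for NSC, orange points for D2, and circles, squares and triangles for control, naloxone and DAMGO. Rows are grouped by role, and the orange points lie left of the blue ones for all genes but Ubtf, whose ranges overlap (149 to 154 TPM in NSC and 147 to 159 TPM in D2).

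Compared per length in TPM, which allows levels of different genes to be set side by side, the set as a whole summed to 7575 to 7709 TPM in the NSC libraries and 2243 to 2357 TPM in the D2 libraries, so the D2 mean was 29.9% of the NSC mean. Npm1 and Ncl, the genes of the abundant nucleolar proteins nucleophosmin and nucleolin, made up 42.0% of the sum in NSC and 22.9% in D2. Without them the sums were 4400.4 to 4439 and 1739 to 1779 TPM, and the D2 mean was 39.8% of the NSC mean. In NSC the order of TPM was Npm1 (2269.7 to 2383), Ncl (866 to 893), Nop56 (445 to 500.3), Nop58 (411 to 425), Nhp2 (258 to 269) and Fbl (227 to 272), and of these neighbours only Nhp2 and Fbl overlapped. In D2, Npm1 was still first (344 to 441 TPM) but Ubtf came second (147 to 159), followed by Nop56 (136 to 160.2), Ncl (121 to 151) and Pes1 (104 to 111). The ranges of Ubtf, Nop56 and Ncl overlapped. Gnl3 went from place 8 to place 33 of the 39, Dkc1 from 10 to 29, Taf1d from 19 to 36 and Nop58 from 4 to 15.

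Myc (chromosome 15, 61985391 to 61990374, mm10), the gene of the transcription factor that drives many of the others, was at 183, 179 and 170.2 CPM in NSC (control, naloxone, DAMGO) and at 88.4, 78.4 and 79.6 CPM in D2. All D2 libraries were below all NSC libraries. The mean fell from 178 ± 6.63 CPM (SD over the 3 ligand conditions) to 82.1 ± 5.45 CPM, with an edgeR log2 fold change of -1.11 (SE 0.06, adjusted p = 2.61e-09), which is 46.3% of the NSC level. In the fall of its messenger RNA Myc thus ranked 25 of 39, near the middle of the set.

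The genes of MYC's relatives and partners did not share one direction: of 10 listed, 6 rose, 3 fell and Mycn did not pass (0.12, SE 0.22). Of all tested genes 40.0% rose and 39.8% fell. Mycl, the family member L-MYC, was at 17.5, 19.9 and 21.7 CPM in NSC and 156, 146 and 158 CPM in D2, a rise of 2.96 on the log2 scale (SE 0.07, edgeR adjusted p = 5.11e-12). Mxd1, which encodes a repressor that competes with MYC for the shared partner MAX, was at 10.1, 10.1 and 9.37 CPM in NSC and 49.0, 55.2 and 48.4 CPM in D2 (log2 fold change 2.37, SE 0.09). The related repressor genes Mxd4 (2.04, SE 0.06) and Mxi1 (1.72, SE 0.07) rose too, and these 2, like Mxd1, were named after their values were seen. Mxd3, in contrast, fell from 42.0 ± 0.831 to 6.28 ± 0.231 CPM (-2.74, SE 0.10). Max itself rose slightly (0.29, SE 0.06), and Mga fell (-1.44, SE 0.08).

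**Figure D2:**
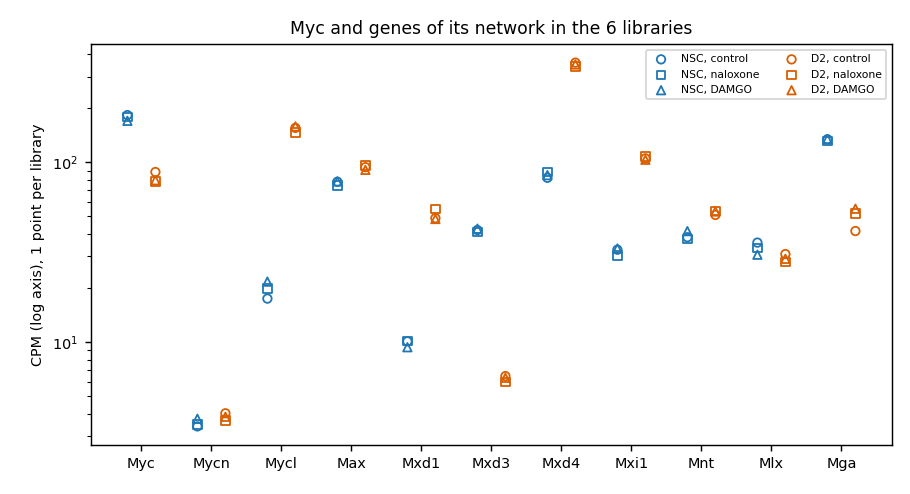
Level of Myc and 10 genes of its network in CPM (vertical log axis, 1 point per library), with NSC in blue and D2 in orange. Myc falls from 178 to 82.1 CPM on average while Mycl rises from 19.7 to 153 CPM and Mxd4 from 85.2 to 350.0 CPM.

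MYC with MAX binds the E-box CACGTG, a palindrome that reads alike on both strands, so the promoters of the set were searched for it. RefSeq promoter windows (300 bases, from 250 before to 50 after a start site, build GRCm38.p6) were given for 34 of the 39 genes; Bop1, Fbl, Myc, Npm1 and Rrp12 had no entry. The motif occurred in 7 of the 34 genes (20.6%), in 11.8% of 9955 tested genes with an entry and in 8.09% of all 27025 genes of the table. Per window the shares were 16.7% of 42, 9.89% of 12786 and 7.15% of 32851. The 7 genes were Rrn3, with 2 matches, and Utp20, Wdr43, Ltv1, Tsr1, Nop2 and Pes1, with 1 each. Their median log2 fold change was -1.25 (range -1.85 to -0.28), against -1.24 (range -2.98 to 0.04) for the 27 without a match. A match is a description of these letters and not a measured binding site. The windows of the gene with 2 matches and of the 3 with the largest falls among the others are shown, each 5′ to 3′ on the strand of its gene, with the E-box in capitals. The matches begin 215 and 48 bases before the start site in Rrn3 (chr16:13780449-13780748, plus strand), at base 38 after it in Utp20 (chr10:88826765-88827064, minus strand), at base 18 in Wdr43 (chr17:71615965-71616264, plus strand) and at base 29 in Ltv1 (chr10:13193088-13193387, minus strand).
Rrn3: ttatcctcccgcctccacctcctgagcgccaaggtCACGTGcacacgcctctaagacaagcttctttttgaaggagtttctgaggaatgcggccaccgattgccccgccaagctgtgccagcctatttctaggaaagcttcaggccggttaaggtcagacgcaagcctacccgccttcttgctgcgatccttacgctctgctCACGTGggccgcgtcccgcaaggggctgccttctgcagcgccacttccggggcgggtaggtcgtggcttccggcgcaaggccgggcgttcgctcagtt
Utp20: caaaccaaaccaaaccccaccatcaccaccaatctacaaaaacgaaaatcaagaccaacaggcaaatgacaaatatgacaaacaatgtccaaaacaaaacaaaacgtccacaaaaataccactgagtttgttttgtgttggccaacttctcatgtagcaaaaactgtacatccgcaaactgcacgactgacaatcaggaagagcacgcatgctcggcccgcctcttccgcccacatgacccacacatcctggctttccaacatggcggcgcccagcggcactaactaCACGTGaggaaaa
Wdr43: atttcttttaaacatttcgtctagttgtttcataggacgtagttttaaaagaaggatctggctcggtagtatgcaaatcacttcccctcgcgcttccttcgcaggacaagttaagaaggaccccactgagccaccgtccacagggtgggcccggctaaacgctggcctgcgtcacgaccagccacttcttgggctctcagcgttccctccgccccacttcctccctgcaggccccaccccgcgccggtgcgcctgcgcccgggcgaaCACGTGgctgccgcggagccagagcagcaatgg
Ltv1: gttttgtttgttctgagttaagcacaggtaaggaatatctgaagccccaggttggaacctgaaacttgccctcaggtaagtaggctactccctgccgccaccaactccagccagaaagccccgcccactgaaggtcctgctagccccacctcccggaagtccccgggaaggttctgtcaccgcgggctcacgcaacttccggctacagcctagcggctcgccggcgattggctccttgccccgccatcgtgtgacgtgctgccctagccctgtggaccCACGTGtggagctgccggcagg

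The RNA polymerase I group was the least uniform. Of 6 genes, 4 fell and 2 did not pass, with a median log2 fold change of -0.58. Ubtf (chromosome 11, 102304560 to 102319742), the gene of the factor UBF that keeps ribosomal DNA open for transcription, was at 215, 216 and 217 CPM in NSC and 225, 212 and 228 CPM in D2, and the groups overlapped. Its log2 fold change was 0.04 (SE 0.05, edgeR adjusted p = 0.521), and the 95% interval reached 0.11 to either side of that value. Polr1c, a subunit shared by polymerases I and III, was at 51.3, 45.6 and 44.7 CPM in NSC and 46.7, 40.4 and 41.6 CPM in D2, also with overlap (-0.14, SE 0.07, edgeR adjusted p = 0.0813). With limma on log2(TPM + 1), Polr1c passed as lower (-0.23). Rrn3 fell to 82.5% of its NSC level (-0.28, SE 0.05).

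Against these, the subunit genes Polr1a and Polr1b of the enzyme fell. Polr1a, the largest catalytic subunit, fell from 157 ± 1.80 to 66.5 ± 2.02 CPM (-1.24, SE 0.05), and Polr1b, the second subunit of the active centre, from 68.8 ± 0.865 to 37.4 ± 0.375 CPM (-0.88, SE 0.07). The largest fall of the group was that of Taf1d (chromosome 9, 15306214 to 15316991), a component of the SL1 complex. It was at 53.7, 48.1 and 48.2 CPM in NSC and 6.67, 8.51 and 9.05 CPM in D2, every D2 library far below every NSC library (-2.64, SE 0.12, edgeR adjusted p = 7.6e-10). Its opposite-strand partners are Cep295 and 4931406C07Rik.

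The 5 genes of the nucleolar protein group all fell by at least 2-fold, with a median of -2.46. Gnl3 (chromosome 14, 31012433 to 31019152), which encodes nucleostemin, a nucleolar GTP-binding protein of stem and dividing cells, had the largest fall of the 39. It was at 154, 142 and 151 CPM in NSC and 15.99, 21.4 and 19.5 CPM in D2, a log2 fold change of -2.98 (SE 0.09, edgeR adjusted p = 2.51e-11), or 12.6% of the NSC level. Npm1 (chromosome 11, 33152287 to 33163206), a chaperone that forms the outer layer of the nucleolus, was at 1131, 1105 and 1136 CPM in NSC and 172, 182 and 212 CPM in D2 (-2.58, SE 0.06). Ncl (chromosome 1, 86344719 to 86359400), which binds nascent ribosomal RNA, was at 1356, 1332 and 1375 CPM in NSC and 219.9, 259 and 260.4 CPM in D2 (-2.46, SE 0.06). For all 3 genes the states were far apart, and in D2 the control library was the lowest.

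The helicase gene Ddx21, whose product acts in ribosomal RNA transcription and processing, fell from 375 ± 3.43 to 99.97 ± 1.04 CPM (-1.91, SE 0.05). Nolc1, a scaffold for snoRNPs, fell least in the group: 241, 255 and 240.2 CPM in NSC against 108, 94.6 and 104 CPM in D2 (-1.26, SE 0.06).

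The set's core protein genes of both kinds of modifying snoRNP fell. In the box C/D class all 3 genes of the set fell. Nop58 was at 216, 205 and 219.5 CPM in NSC and 31.2, 39.5 and 32.5 CPM in D2 (-2.64, SE 0.08), while its partner in the same particle, Nop56, fell less (from 299 ± 7.86 to 97.9 ± 7.25 CPM; -1.61, SE 0.05). Fbl (chromosome 7, 28169710 to 28179269), the methyltransferase fibrillarin, was at 128, 137 and 114 CPM in NSC and 52.4, 44.7 and 44.2 CPM in D2 (-1.42, SE 0.07). The 3 proteins belong to one particle, and their messenger RNAs were at 16.1%, 32.7% and 37.3% of the NSC level. Snu13, a snoRNP gene outside the set, fell less, from 185 ± 4.96 to 162 ± 8.31 CPM (-0.19, SE 0.05).

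In the H/ACA class all 3 genes of the set fell as well. Dkc1 (chromosome X, 75095854 to 75109777), the pseudouridine synthase dyskerin, was at 139, 145 and 148 CPM in NSC and 23.9, 25.6 and 20.4 CPM in D2 (-2.62, SE 0.08). Gar1 fell from 40.2 ± 2.99 to 10.9 ± 2.25 CPM (-1.89, SE 0.12). Nhp2, a core protein of the same particle, was at 114, 117 and 118 CPM in NSC and 42.9, 37.2 and 43.8 CPM in D2 (-1.50, SE 0.07). Nop10, a snoRNP gene outside the set, fell less, from 55.8 ± 2.35 to 34.5 ± 2.98 CPM (-0.69, SE 0.08). Neither in the H/ACA class nor in the box C/D class did any D2 library reach an NSC library.

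**Figure D3:**
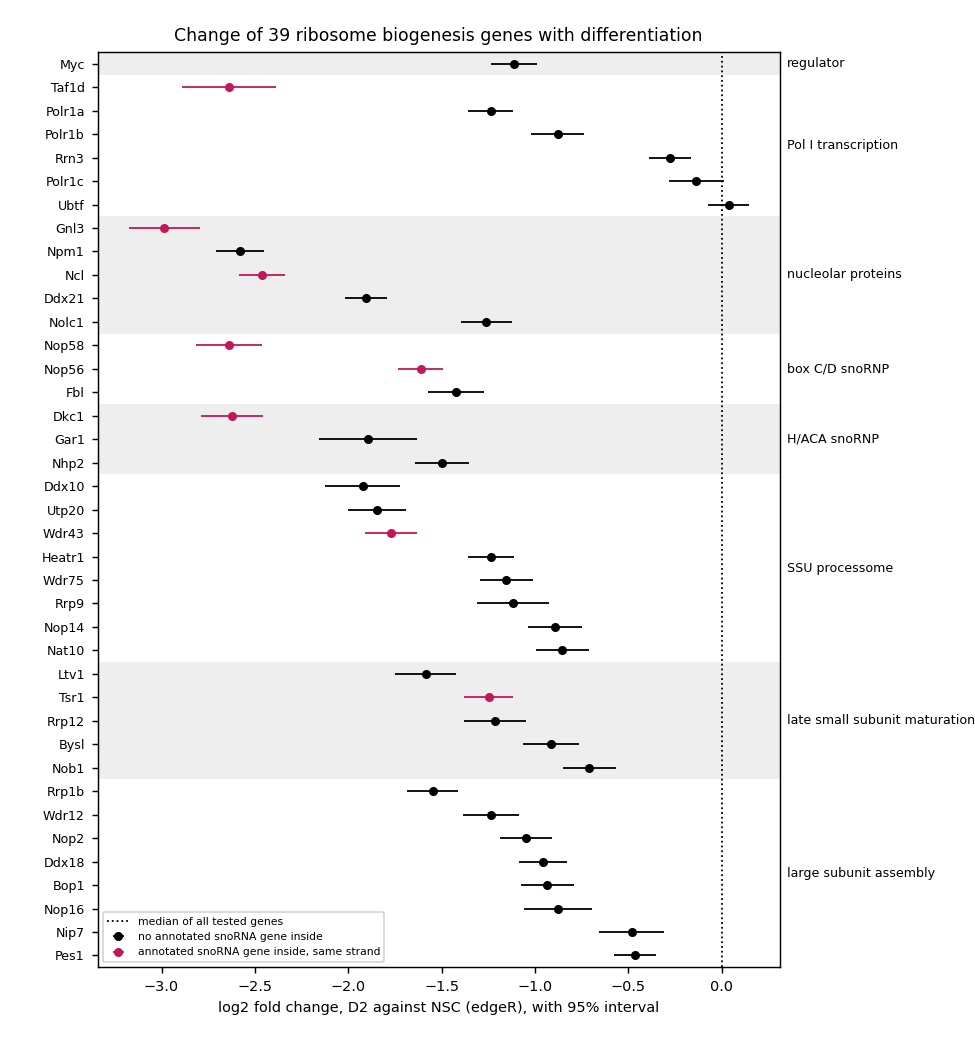
The edgeR log2 fold change of each gene, D2 against NSC (horizontal axis), with its 95% interval, grouped by role; pink points are genes with an annotated snoRNA gene inside them and the dotted line is the median of all 13216 tested genes. Gnl3 lies farthest left at -2.98, and the intervals of Ubtf and Polr1c cross the dotted line.

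In the SSU processome, the large particle that processes the small-subunit part of the precursor, all 8 genes fell (median -1.19), 6 of them by at least 2-fold. Ddx10, a helicase gene, was at 39.004, 41.5 and 41.1 CPM in NSC and 9.71, 10.99 and 11.4 CPM in D2 (-1.92, SE 0.09). Utp20 (-1.85, SE 0.07) and Wdr43 (-1.77, SE 0.06) came next. Wdr43, Wdr75 (-1.15, SE 0.06) and Heatr1 (-1.24, SE 0.06) belong to the subcomplex that also supports transcription by polymerase I, and Rrp9 (-1.12, SE 0.09) is a protein of the U3 snoRNP. The smallest fall was that of Nat10, the RNA acetyltransferase, at 83.4, 81.0 and 81.0 CPM in NSC and 44.1, 43.5 and 48.3 CPM in D2 (-0.85, SE 0.06), with Nop14 close to it (-0.89, SE 0.07).

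Later steps of small subunit maturation were represented by 5 genes, all lower in D2 (median -1.21). Ltv1, an assembly factor released late in maturation, was at 55.6, 59.2 and 59.4 CPM in NSC and 19.0, 19.1 and 19.8 CPM in D2 (-1.59, SE 0.08). Tsr1 (-1.25, SE 0.06), a GTPase-like factor, Rrp12 (-1.21, SE 0.08), an export factor, and Bysl (-0.91, SE 0.07), the gene of bystin, fell by intermediate amounts. Nob1, the endonuclease that makes the last cut at the end of the small-subunit RNA, fell least, from 66.5, 72.8 and 66.7 CPM to 42.5, 42.9 and 40.5 CPM (-0.71, SE 0.06).

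In large subunit assembly all 8 genes fell (median -0.95), 3 of them by at least 2-fold. Rrp1b was at 99.8, 105 and 103 CPM in NSC and 33.1, 35.4 and 36.8 CPM in D2 (-1.55, SE 0.06). Pes1, Bop1 and Wdr12 encode the PeBoW complex, and their falls were unequal at -0.47 (SE 0.05), -0.93 (SE 0.06) and -1.24 (SE 0.07). Pes1 was at 147, 145 and 144 CPM in NSC and 107, 105 and 104 CPM in D2, and was the smallest fall of the group beside Nip7 (-0.48, SE 0.08). The RNA methyltransferase gene Nop2 (-1.05, SE 0.06), the helicase gene Ddx18 (-0.96, SE 0.06) and Nop16 (-0.88, SE 0.08) lay between.

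Several of the largest falls belonged to genes with small nucleolar RNA genes inside them, a feature that was looked up after the changes had been seen. Such host genes release the guide RNA from the spliced intron, so 1 transcript yields both a protein and a snoRNA. In GENCODE M21, 8 of the 39 genes hold an annotated snoRNA gene on their own strand: Taf1d with 8, Nop56 with 5, Nop58 with 4, Ncl, Gnl3 and Wdr43 with 3 each, Tsr1 with 2 and Dkc1 with 1. Of the 6 largest falls in the set, 5 were of these hosts, and Npm1 was the other. The hosts had a median log2 fold change of -2.54 (range -2.98 to -1.25) and the 31 other members one of -1.12 (range -2.58 to 0.04). Over the 206 tested genes outside the set that hold a snoRNA gene, 118 fell and 48 rose (57.3% lower, median -0.41), and over 12922 tested genes annotated without one the median was 0.01 with 39.4% lower. Of 7 matched noncoding snoRNA host genes, 6 fell (median -1.06), Snhg15 from 16.03 ± 0.326 to 5.24 ± 0.633 CPM (-1.62, SE 0.14) and Snhg3 from 11.4 ± 1.09 to 4.20 ± 0.845 CPM (-1.43, SE 0.18). The reads do not separate host messenger RNA from snoRNA output.

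Other ribosome biogenesis factors outside the 39, listed from textbook roles in 4 lists, mostly moved in the same direction. Of 114 tested, 90 fell and 10 rose, with a median of -0.63. These lists, like the set, were chosen with earlier results of these data known, so their counts are no independent check. Of 10 further genes of polymerase I transcription, 5 fell and 1 rose (median -0.24), beside 39.8% and 40.0% of all tested genes. Polr1f, a subunit of the enzyme (-1.30, SE 0.12), and Tcof1, the gene of the nucleolar protein treacle (-1.10, SE 0.06), fell, and Taf1c of the SL1 complex rose (0.60, SE 0.12). All 10 further snoRNP and assembly genes fell (median -0.74), led by Shq1, a dyskerin chaperone (-1.92, SE 0.17), and Ruvbl1, an ATPase of the snoRNP assembly machinery (-0.96, SE 0.07). For the small subunit 33 of 45 fell and 4 rose (median -0.62). Esf1 fell from 57.4 ± 2.57 to 3.16 ± 1.28 CPM (-4.21, SE 0.16), more than any of the 39, and Mphosph10, a component of the U3 snoRNP, from 59.1 ± 1.18 to 9.998 ± 1.10 CPM (-2.57, SE 0.09). For the large subunit 42 of 49 fell and 5 rose (median -0.75), with Rpf2 at -1.90 (SE 0.09) and the export adaptor gene Nmd3 at -1.81 (SE 0.07). The 5 that rose were Nop53, Rrp1, Efl1, Sbds and Zfp622, by 0.16 to 0.61.

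**Figure D4:**
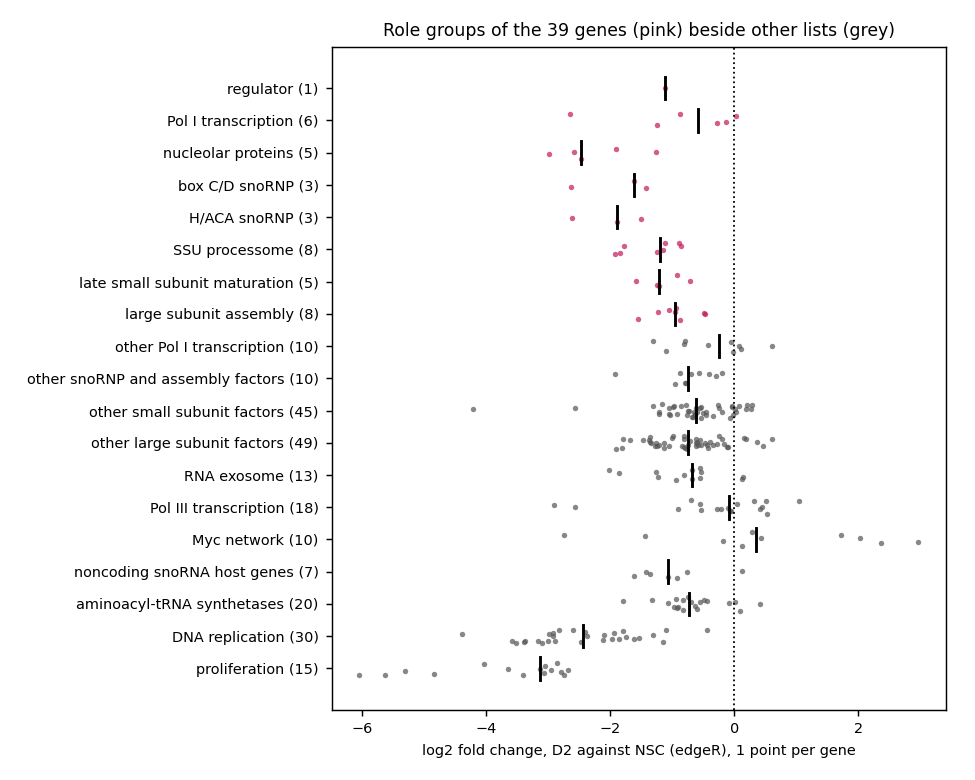
The edgeR log2 fold change, D2 against NSC, of each gene (1 point) in the 8 role groups of the set (pink) and in other lists (grey), with black bars at each median, the number of genes tested in brackets and a dotted line at the median of all tested genes. The medians of the role groups run from -2.46 for nucleolar proteins to -0.58 for polymerase I transcription, and those of DNA replication and proliferation lie at -2.44 and -3.13.

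Lists of other growth-related genes give the scale of these changes. All 30 DNA replication genes fell (median -2.44), all 15 proliferation genes fell (median -3.13), and 16 of 20 cytosolic aminoacyl-tRNA synthetase genes fell and 1 rose (median -0.73). The set's median of -1.24 thus lay between those of the replication genes and the synthetases, and differences between lists were not tested. The proliferation marker Mki67 was at 1532, 1546 and 1475 CPM in NSC and 22.4, 41.1 and 29.8 CPM in D2.

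No gene of the set passed for a ligand over the 2 states. With naloxone against control, edgeR called 0 of the 39, beside 0.0151% of all tested genes, and 1 member, Polr1c, had a p below 0.05 before adjustment (log2 fold change -0.19, SE 0.08). For DAMGO against control it was again 0 of the 39, beside 0.0151%, and 2 had a p below 0.05 before adjustment, Fbl (-0.20, SE 0.08) and Polr1c (-0.18, SE 0.08). For naloxone against DAMGO 0 of the 39 were called, beside 0.0303%, and 0 had a p below 0.05 before adjustment. DESeq2 and limma on log2 TPM called 0 members for each of these contrasts. The medians of the set were -0.03, 0.00 and -0.01. The median 95% interval of a member reached 0.17 on the log2 scale to either side, so changes smaller than that could not be told from the spread. That interval is for 1 gene without adjustment. Larger changes could therefore also go uncalled, as those of Polr1c and Fbl above did.

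Myc did not pass for either ligand, although it was below the control of its state in each of the 4 ligand libraries. That was also so for Polr1a, Polr1c, Wdr75, Rrp9, Nop16 and Pes1, and the share over all genes was not computed. The log2 fold change of Myc over the 2 states was -0.09 (SE 0.07) for naloxone and -0.13 (SE 0.07) for DAMGO, from the library values given above. Library by library, with 95% intervals for counting error only, Myc in NSC was at 0.977-fold the control with naloxone (interval 0.920 to 1.04) and at 0.929-fold with DAMGO (interval 0.869 to 0.994). In D2 it was at 0.888-fold with naloxone (interval 0.802 to 0.982) and at 0.900-fold with DAMGO (interval 0.814 to 0.995). So 3 of the 4 intervals lay below equality, and the 2 ratios of a state share its control library.

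Within a state each ligand is 1 library against 1 control, with no replicate check, so the ratios below describe these libraries and carry exact binomial 95% intervals for counting error only. In NSC the set was nearly flat. With naloxone, log2 ratios ran from -0.17 for Polr1c to 0.16 for Gar1, and with DAMGO from -0.20 for Polr1c to 0.10 for Ltv1. Counting only members past 0.32 on the log2 scale in either direction, 0 were higher and 0 lower for either ligand, beside 0.543% higher and 0.302% lower with naloxone and 0.459% higher and 0.700% lower with DAMGO over the 8282 genes of at least 20 CPM on average, which include all 39.

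The D2 libraries differed more. With naloxone 3 of the 39 (7.69%) were above the control by at least 0.32 (log2) and 0 below, beside 5.29% and 1.49% of the 8282 genes, and with DAMGO 2 (5.13%) were above and 0 below, beside 3.47% and 0.942%. These shares are near the background. The 3 with naloxone were Gnl3 (1.33-fold, interval 1.08 to 1.66), Taf1d (1.27-fold, interval 0.903 to 1.80) and Nop58 (1.26-fold, interval 1.08 to 1.48). With DAMGO they were Gar1 (1.49-fold, interval 1.13 to 1.99) and Taf1d (1.35-fold, interval 0.970 to 1.90). The lowest ratios in D2 were those of Rrp9 with naloxone (0.832-fold, interval 0.659 to 1.04) and Utp20 with DAMGO (0.839-fold, interval 0.718 to 0.977).

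By counting error alone, the D2 intervals of 3 members lay above equality and those of 5 below it with naloxone, and 3 above and 3 below with DAMGO. The share of all genes with such intervals was not computed, so these counts show nothing particular to the set. The genes of the nucleolar protein group did not share one direction. Ncl was 1.18-fold the control with naloxone (interval 1.11 to 1.248) and 1.18-fold with DAMGO (interval 1.12 to 1.26). Npm1 was 1.06-fold with naloxone (interval 0.986 to 1.13) and 1.24-fold with DAMGO (interval 1.16 to 1.32). Nolc1 was at 0.874-fold with naloxone (interval 0.797 to 0.958) and at 0.965-fold with DAMGO (interval 0.883 to 1.05), and Ddx21 at 1.00-fold (interval 0.916 to 1.10) and 0.984-fold (interval 0.898 to 1.08). Gnl3, named above for naloxone, was at 1.21-fold with DAMGO (interval 0.977 to 1.52). Fbl, of the box C/D class, was below the control in both, at 0.853-fold (interval 0.745 to 0.974) and 0.845-fold (interval 0.739 to 0.964). Both ratios of a gene use the same D2 control library. In that library the fibroblast and pericyte markers summed to 29.5 CPM against 15.2 and 15.3 CPM with naloxone and DAMGO, and the proliferation list to 397 CPM against 446 and 391 CPM; their part in these ratios was not tested.

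**Figure D5:**
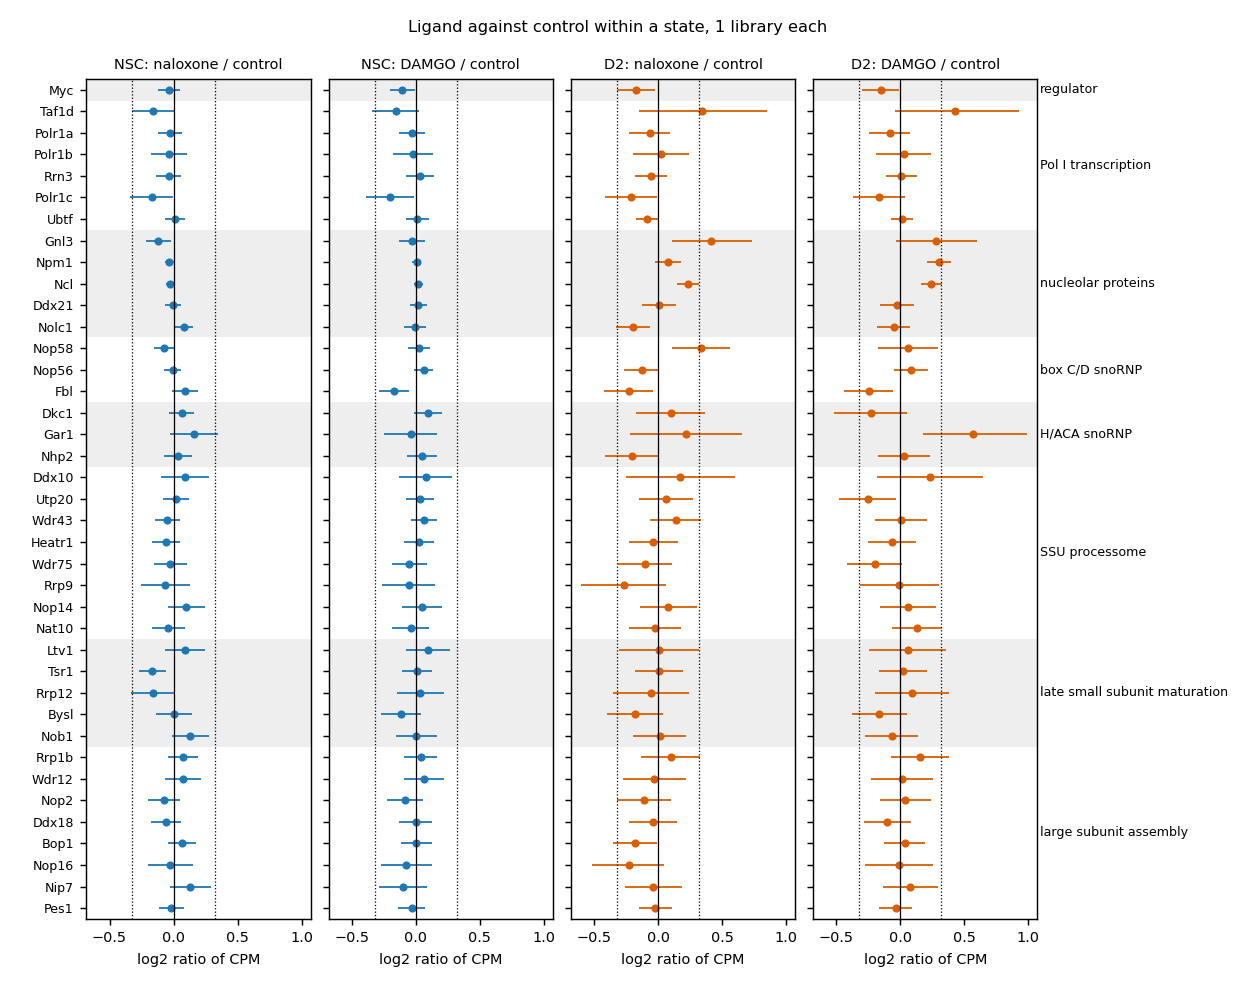
The log2 ratio of CPM, ligand against control, for each gene in each of 4 comparisons of 1 library with 1 library (horizontal axis), with exact 95% counting intervals as bars, NSC in blue and D2 in orange; dotted lines mark 0.32 to either side of 0. All points of the NSC panels lie between the dotted lines, and 5 points of the D2 panels lie beyond the right one.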

How the data were processed

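RNA was extracted with Trizol and sequenced from TruSeq RNA libraries, per the labels' protocols. Reads were handled with Bowtie and RSEM on mm10, per the submitters' processing notes; their versions and the annotation are not stated in the sources at hand. The authors deposited expected counts, which divide reads that map to several genes, and TPM values; the FPKM column was not used. Symbols and coordinates came from GENCODE M21. Expected counts were not whole in at least 1 library for 20 members, and 12 members share exon sequence with an opposite-strand gene of at least 10 counts.

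Counts were rounded, filtered at a mean of 10 (13216 genes), scaled by TMM and fitted with edgeR 4.0.16 (glmQLFit, state plus ligand, 2 residual degrees of freedom); Benjamini-Hochberg adjustment ran over all tested genes at 0.05. Within-state ratios used a prior count of 2 and a threshold of 0.32 (log2). Intervals cover counting error only. DESeq2 1.42.0 and limma 3.58.1 on log2(TPM + 1) and log2(TPM + 0.1), other scalings and filters, and leaving out each library were alternatives. The scripts were tested on simulated data. Members and lists were chosen with earlier results of these data known. All members are reported. Given in full are Myc, Ncl, Npm1 and Fbl, the largest and smallest change of each role group and the highest and lowest ligand ratios. Of other lists, the 2 largest changes among called genes of at least 5 CPM are named. No such pair is named for DNA replication, proliferation, the synthetases or the cell type markers. Single further genes were named after their values were seen.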

Additional observations from a re-analysis of the deposited data

Results flagged for a closer look

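For 2 genes the ratio of naloxone to control pointed in opposite directions in the states, with counting intervals that exclude equality in both. Gnl3 had a log2 ratio of -0.12 in NSC and 0.41 in D2. Nolc1 had a log2 ratio of 0.0800 in NSC and -0.19 in D2. Each state has 1 library per ligand, so the difference between the states was not tested. All 39 genes were looked at for both ligands, and the share of all genes with such a pattern was not computed.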

How the results depend on the processing

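The count of members lower in D2 was 37 or 38 under every alternative run and the count higher was 0 under each; Polr1c is the member that was added, with limma on log2(TPM + 1) (-0.23) and log2(TPM + 0.1) (-0.23). Over 585 refits of single members, 583 kept the direction and the side of the threshold. The median log2 fold change lay between -1.25 and -1.17; it was -1.17 with upper-quartile factors and -1.20 with limma on log2(TPM + 1), shifts larger than its SD over the ligand conditions. Total counts without TMM, an alternative chosen after seeing the data, left all of these counts as they were. For the ligands, 0 members were called under each alternative, including without each library in turn. With ratios of TPM in place of CPM, 1 member (Dkc1) was past 0.32 (log2) higher with DAMGO in NSC. With naloxone in D2, 4 were higher (Gnl3, Nop58, Wdr12 and Rrp1b, without Taf1d) and 1 lower (Nop16), and with DAMGO in D2, 4 were higher (Taf1d, Gar1, Npm1 and Wdr12) and 1 lower (Dkc1); the cause was not tested. The ligand term already sets each NSC library against the D2 library of the same ligand. No pairing beyond that was possible, because the labels give no replicate numbers and each group holds 1 library. Depth limits ratios of members of few counts, such as Taf1d, with 68 to 80 counts in D2.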

Other observations

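RNA polymerase III makes transfer RNA and the small ribosomal RNA of the large subunit. Of 18 tested genes of its transcription, 8 fell (44.4%) and 6 rose (median log2 fold change -0.08, edgeR). Of all tested genes 39.8% fell and 40.0% rose, so these counts are near the background. Polr3g, a subunit linked to stem cells, fell from 13.5 ± 1.254 to 1.78 ± 0.0243 CPM between NSC and D2, each with its SD over 3 libraries (-2.91, SE 0.18), and Bdp1, a subunit of the initiation factor TFIIIB, from 94.3 ± 4.67 to 16.04 ± 2.19 CPM (-2.56, SE 0.08). Maf1, the repressor of polymerase III, was at 58.2, 59.8 and 63.8 CPM in NSC and 119, 122 and 133 CPM in D2 (1.04, SE 0.05); it was named after its value was seen.

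In the RNA exosome, which trims ribosomal RNA precursors, 11 of 13 genes fell and 0 rose (median -0.68). Exosc8 fell from 89.5 ± 4.12 to 22.1 ± 0.483 CPM (-2.01, SE 0.07) and the nuclease gene Dis3 from 90.8 ± 2.44 to 25.1 ± 1.40 CPM (-1.85, SE 0.07). Exosc4 and Exosc5 did not pass.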
